A study of Mus musculus with 11 samples.

Results

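The genes described here carry the symbols of the proteins of the cytosolic ribosome, the particle that translates messenger RNA outside mitochondria. They were chosen by symbol, as Rpl or Rps followed by a number and an optional letter, together with Rplp0, Rplp1, Rplp2 and Rpsa, leaving out S6 kinases and symbols that begin with Gm or carry a -ps suffix. The rule works on symbols alone, and the members Rps4l, Rps3a2, Rps3a3 and Rpl6l are classed as pseudogenes in GENCODE M21. Of 19444 genes in the deposited table, 85 met this rule, 50 of the large subunit and 35 of the small subunit. Expression was measured in single cells of the stellate ganglion, which supplies sympathetic nerves to the forelimb and upper body, from 6 male C57BL/6J mice aged 6-8 weeks. Every mouse carried both tracers, CTB-488 from the forelimb and CTB-555 from the interscapular brown adipose tissue (iBAT), given 3 days before the tissue was taken. Each of 3 sets pools the tissue of 2 mice, and its cells fill 4 plates in the case of Sets 1 and 2 and 3 plates in the case of Set 3. The table holds 878 cells with 30518080 counts, 2050165 to 3373157 per plate, and the authors divided the cells into clusters 1 to 4. No cell was tied to a tracer here, so clusters and sets are the groups compared.

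A ribosome holds 1 copy of nearly every such protein, apart from the stalk proteins Rplp1 and Rplp2, so cells make the proteins in closely matched amounts. Many of the genes share a short pyrimidine-rich stretch at the start of the transcript, the 5′ terminal oligopyrimidine tract, through which the kinase mTOR and the protein Larp1 set how often these mRNAs are translated. In neurons the mRNAs are also carried into axons. Mammalian genomes hold many processed pseudogenes of ribosomal protein genes, which are near-identical copies, so short reads from the genes can match more than 1 place.

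The start of the transcript is shown for members that the comparisons below turn on, from 10 bases before the RefSeq start to 20 bases from it (GRCm38.p6). Capitals mark a C followed by at least 6 bases that are C or T, starting within 20 bases of the start on the transcribed strand. The first lines hold members with this tract, and the last 5 members without it.
Rps18 (chr17:33955646-33955675, minus strand): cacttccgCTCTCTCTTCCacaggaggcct
Rps26 (chr10:128626487-128626516, minus strand): gcaagccgccggatCCTCTTTCgagtcttg
Rps9 (chr7:3704031-3704060, plus strand): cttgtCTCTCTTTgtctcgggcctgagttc
Rpl14 (chr9:120571507-120571536, plus strand): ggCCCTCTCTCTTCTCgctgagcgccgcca
Rpl35 (chr2:39005112-39005141, minus strand): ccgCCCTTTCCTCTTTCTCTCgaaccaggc
Rpl38 (chr11:114668570-114668599, plus strand): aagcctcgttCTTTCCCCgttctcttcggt
Rplp2 (chr7:141447641-141447670, plus strand): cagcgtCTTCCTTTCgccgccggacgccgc
Rps3 (chr7:99483690-99483719, minus strand): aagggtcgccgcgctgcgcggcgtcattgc
Rps19 (chr7:24884582-24884611, plus strand): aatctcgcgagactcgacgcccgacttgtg
Rpl37 (chr15:5116603-5116632, plus strand): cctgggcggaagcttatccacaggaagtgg
Rpl6 (chr5:121204491-121204520, plus strand): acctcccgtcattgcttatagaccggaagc
Rps7 (chr12:28635934-28635963, minus strand): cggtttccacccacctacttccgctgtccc
Windows from the RefSeq table matched 61 of the 85 members. The tract was present in 31 of the 61 (50.8%), against 20.2% of all 27025 promoter windows searched the same way. The letters CCGGAAG, which belong to the binding motif of ETS factors such as GABPA, stood on either strand of the promoter window in 24 of 61 members (39.3%) and in 9.12% of all windows. Such matches describe letters in a window and are not binding sites, and the annotated start may differ from the one used in these neurons.

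Levels of the members spanned more than 3 orders of magnitude in the neuron clusters. Values are counts per 10000 of a cell, averaged over the cells of a set and then over sets. Because reads come from transcript ends, counts are not divided by length, and differences between members also depend on how many reads could be placed. Rpl41, a very short basic protein, had the highest mean over clusters 1, 2 and 4 at 11.7 counts per 10000. It measured 13.4, 11.1 and 9.95 in cluster 1 of Sets 1, 2 and 3, and 13.7, 10.2 and 10.1 in cluster 2 of the same sets. Rps14 of the small subunit followed at 9.59 and Rps26, which lines the mRNA exit channel, at 8.90. The stalk protein Rplp1, which helps recruit elongation factors, averaged 7.53, Rpl4 of the peptide exit tunnel 7.40, and Rps9 6.98. Neighbours among these 6 differed by less than the larger SD over sets in each of the 3 clusters, except Rpl41 and Rps14 in cluster 2. Set by set, Rpl41 was above Rps14 and Rps26 above Rplp1 in every set of these clusters, while the other neighbours changed order. The 10 highest members made up 35.4% of the summed level, 50 members reached 1 count per 10000, 35 lay below 1 and 7 below 0.1.

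**Figure D1:**
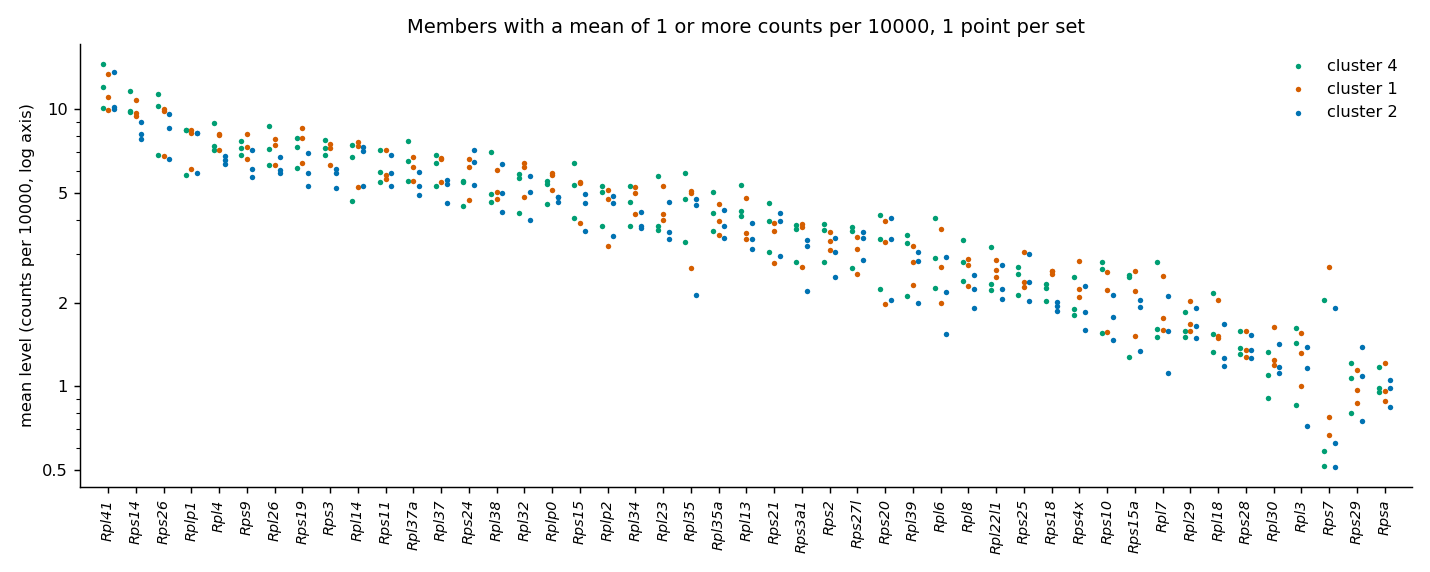
Mean level of 47 members at 1 or more counts per 10000 in clusters 4, 1 and 2 (log axis), with 1 point per set and genes ordered by mean level. Rpl41 leads at 11.7 counts per 10000, and the order is nearly the same in the 3 clusters, while Rps7 has 1 set well above the other 2.

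The order of the 85 members was nearly the same in every neuron group. Spearman's rho with cluster 2, over 85 members from the same sets, was 0.997 for cluster 1, 0.995 for cluster 4 and 0.998 for the high-count part of cluster 3. For its low-count part, described further on, it was 0.948. These are descriptions across genes, which are not independent.

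Some members that other tissues express strongly were close to 0. Rps6, the substrate of S6 kinase, averaged 0.028 counts per 10000, and Rpl5, which joins Rpl11 in binding Mdm2, 0.010. These and Rps3a2, Rps3a3, Rpl6l and Rpl10l did not reach the mean of 0.05 that the cluster tests required, so 79 members were tested between clusters and 80 between sets. Annotated pseudogenes named after a member held more counts than the member itself in 16 of 57 members that have such rows. Rpl10, a late-joining protein of the large subunit, averaged 0.101 against 3.31 in the row Rpl10-ps3. For Rpl10a the values were 0.118 against 2.21 in the row Rpl10a-ps1, and for Rpl9 0.077 against 1.06 in the row Rpl9-ps6.

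Low members more often had a 3′ end that other genes share. For each member, every run of 50 bases in the last 300 bases of the principal GENCODE M21 transcript was taken, moving 1 base at a time, and a run was its own where no other annotated gene held it. The median share of own runs was 46.4% in the 50 members at 1 or more counts per 10000 and 19.1% in the 35 members below 1. Across the 85 members Spearman's rho between share and level was 0.36, again as a description. Rpl10, Rpl9 and Rps12 had no run of their own. Exceptions ran both ways. Rpl35 had 3.98% own runs and a mean of 4.24, while Rpl5 and Rpl28 had 100% and means of 0.010 and 0.169. The share holds only for the end of the transcript taken, 2045 bases long for Rpl5 and 1106 for Rpl28. Other ends of a gene were not looked at, so own runs do not show that its reads could all be placed. The row Rpl28-ps1 held 0.601 counts per 10000, more than Rpl28. What part read placement has in these levels was not tested.

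**Figure D2:**
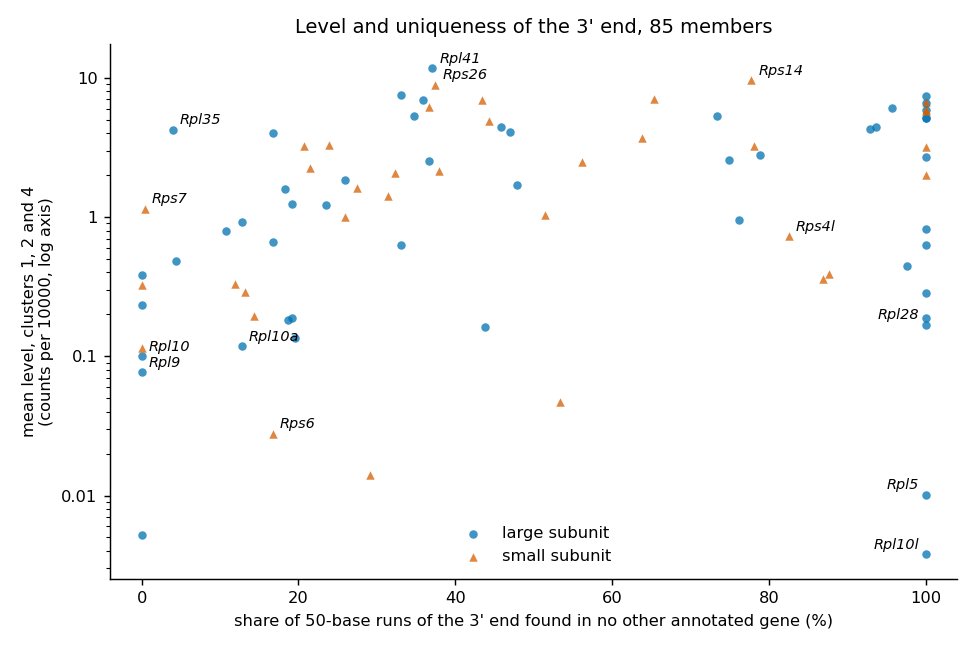
Share of 50-base runs of the last 300 transcript bases found in no other annotated gene (x axis, percent) against mean level in clusters 1, 2 and 4 (y axis, counts per 10000, log scale), 1 point per member. Members below 1 count per 10000 gather at low shares, with a median of 19.1% against 46.4% above it, and Rpl5 and Rpl28 lie low at 100%.

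The first comparison asked whether the largest clusters differ in ribosomal protein transcripts. Cluster 1 held 388 cells with a median of 28396 counts and cluster 2 held 335 cells with 40121. Of 9 neuron markers in the table, all were detected in both, summing to 158-196 counts per 10000 over the sets in cluster 1 and 180-220 in cluster 2. The members summed to 258, 233 and 200 counts per 10000 in cluster 1 of Sets 1, 2 and 3, against 236, 202 and 185 in cluster 2. Cluster 1 was higher in 3 of 3 sets, by a mean of 22.7 ± 8.72 (SD, n = 3 sets), and in 11 of 11 plates. Over cluster 1 cells of Set 1 the SD was 28.3. Thinning each cell to 15000 counts gave a mean difference of 22.4.

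**Figure D3:**
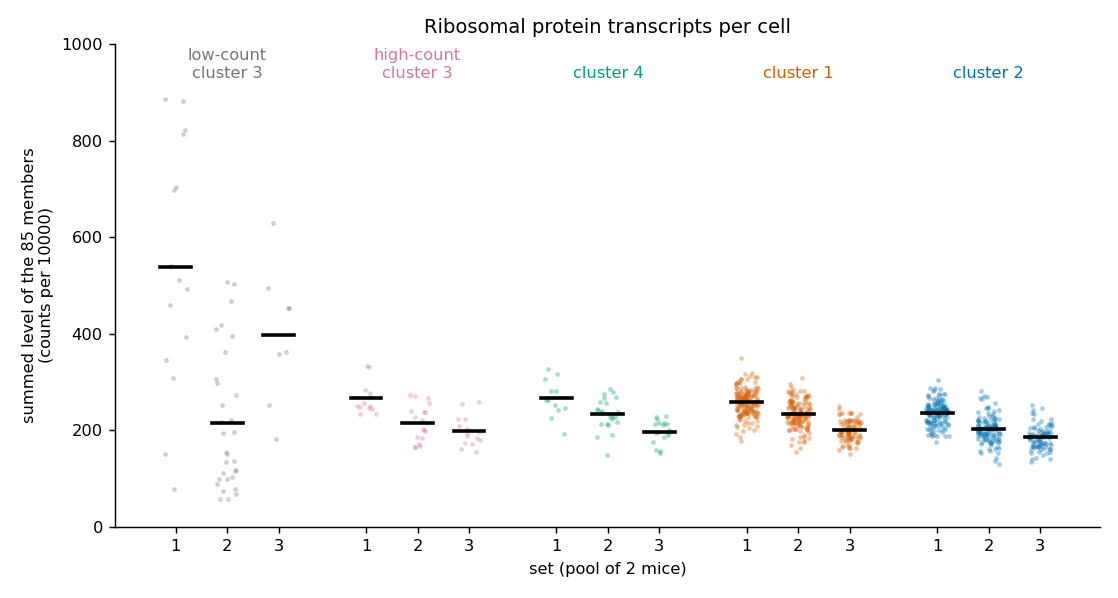
Summed level of the 85 members in each cell (points, counts per 10000) and mean per set (bars), by group and set. Cluster 1 means of 258, 233 and 200 lie above cluster 2 means of 236, 202 and 185 set by set, and low-count cluster 3 cells spread from 57.7 to 886.

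At the level of single genes, 15 of 79 tested members (19.0%) rose in cluster 1 relative to cluster 2 and none fell, at an adjusted p under 0.05 (limma, 10564 genes). At an unadjusted p under 0.05, 30 were higher and 1 lower, and voom weights on summed counts called 33 higher and 1 lower. Over all genes tested, 3.59% were higher and 5.27% lower at the adjusted threshold. Of 1875 genes averaging at least 1 count, scaled as above, over both clusters, 8.48% were higher and 15.5% lower. At that level, 14 of 49 members were higher and none lower. The members' median log2 difference was 0.03, against -0.01 over all genes. In 42 members (53.2%) the mean was higher in all 3 sets, as it was in 21.6% of all genes. Those that rose were 8 small-subunit and 7 large-subunit members, with log2 differences of 0.18 to 0.36.

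The largest difference belonged to Rps4l, a row close in sequence to the X-linked small-subunit gene Rps4x. GENCODE M21 places Rps4l at chr6:148354656-148355598 (GRCm38, plus strand) and classes it as a transcribed processed pseudogene, and 82.5% of its 3′ runs are its own. Its level was 1.04, 0.919 and 0.814 counts per 10000 in cluster 1 of Sets 1, 2 and 3, against 0.645, 0.461 and 0.400 in cluster 2. The groups did not overlap, and the log2 difference was 0.36 (SE 0.06, adjusted p 8.96e-04, limma). Rps4x rose by less, with 2.40 ± 0.385 counts per 10000 in cluster 1 and 1.92 ± 0.354 in cluster 2 (SD, n = 3 sets; log2 difference 0.21, limma adjusted p 0.023). Rps4l therefore held 28.3% ± 1.71 of the counts of the pair in cluster 1 and 19.7% ± 2.03 in cluster 2, with no overlap between the sets' values.

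Rps18, in the head of the small subunit, had 2.61, 2.54 and 2.60 counts per 10000 in cluster 1 of Sets 1, 2 and 3, against 2.01, 1.87 and 1.96 in cluster 2. The 3 sets agreed closely and the groups lay well apart (log2 difference 0.29, SE 0.05, adjusted p 0.0016, limma). Rps18 lies at chr17:33951999-33956001 (GRCm38, minus strand) and carries the start tract printed above, and only 21.5% of its 3′ runs are its own. Rps14 measured 10.9, 9.68 and 9.45 in cluster 1 and 9.01, 7.83 and 8.13 in cluster 2, a log2 difference of 0.23 (SE 0.04, limma adjusted p 0.0021). Rps19, the gene most often mutated in human Diamond-Blackfan anaemia, averaged 7.61 ± 1.10 in cluster 1 and 6.05 ± 0.847 in cluster 2 (log2 difference 0.29, limma adjusted p 0.0032). Rps3, which lines the mRNA entry channel, averaged 7.01 ± 0.616 and 5.73 ± 0.477 in clusters 1 and 2, a log2 difference of 0.25. Rpl37 averaged 6.25 ± 0.694 in cluster 1 and 5.17 ± 0.510 in cluster 2, a log2 difference of 0.24. The other members that rose were Rpl26, Rpl32, Rpl34, Rpl4, Rpl6, the stalk base Rplp0, Rps3a1 and Rps9. Rps3, Rpl37, Rpl4, Rpl6 and Rplp0 are among the members whose 3′ runs are all their own in the transcript taken, 1908 bases long for Rps3.

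Other genes of translation did not move as a block. Among 9 genes listed under elongation, Eef1a1 and Eef1g rose in cluster 1, by 0.30 and 0.27 on the log2 scale. Eef1e1, an elongation factor by symbol only, fell by 0.79. None of 31 initiation genes passed the test, and 2 of 76 tested mitochondrial ribosomal protein genes fell, Mrpl20 by 0.21 and Mrps21 by 0.19. Of ribosome biogenesis genes 2 of 38 fell and none rose. The 3 genes of the cytosolic ribosome with other names in the table, Fau, Rack1 and Rpl36al, did not pass. The summed level of 10 glial markers was 11.9-14.4 counts per 10000 over the sets in cluster 1 and 13.8-23.5 in cluster 2. Without the 10% of neurons richest in these markers 9 members rose, and with each cell thinned to 15000 counts 7 did. Without Set 1, Set 2 or Set 3, the members that passed numbered 6, 2 and 9, all higher in cluster 1. With the set left out of the model as a block, only Rps4l passed.

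In cluster 4 the 4 cholinergic markers summed to 58.2-64.6 counts per 10000 over the sets, against under 0.4 in clusters 1 and 2. Most of this sum was Vip, a neuropeptide of cholinergic sympathetic neurons, at 54.1 ± 4.14 in cluster 4, and Slc18a3, the vesicular acetylcholine transporter, averaged 5.11 ± 0.956 (SD, n = 3 sets). All 4 markers rose against both clusters (limma). It held 54 cells, 12, 24 and 18 in Sets 1, 2 and 3, with a median of 35488.5 counts. The members summed to 266, 234 and 197 counts per 10000 in cluster 4 of Sets 1, 2 and 3. Against cluster 2 this was higher in 3 of 3 sets, by a mean of 24.9 ± 11.2 (SD, n = 3), and against cluster 1 in 2 of 3 sets, by 2.22 ± 5.69.

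In cluster 4, 20 of 79 members rose relative to cluster 2 and 1 fell (limma), while 9.13% of all genes tested were higher and 10.9% lower. Of 1869 genes averaging at least 1 count per 10000 over both clusters, 17.3% were higher and 20.4% lower. At that level, 19 of 49 members were higher and 1 lower. The members' median log2 difference was 0.07, against -0.01 over all genes, and 40 members (50.6%) were higher in all 3 sets, against 19.8% of all genes. Rpl6 of the large subunit had 4.05, 2.27 and 2.90 counts per 10000 in cluster 4 of Sets 1, 2 and 3, against 2.92, 1.55 and 2.20 in cluster 2. It was higher in each set although the ranges overlap, because Set 1 was high in both clusters (log2 difference 0.35, SE 0.05, limma adjusted p 1.20e-04). Rpl13 had 4.11, 5.32 and 4.29 in cluster 4 and 3.13, 3.88 and 3.40 in cluster 2, without overlap. Its log2 difference was 0.33 (SE 0.05, limma adjusted p 3.17e-04), and only 16.7% of its 3′ runs are its own. Rps14 and Rps3 each rose by 0.30 on the log2 scale, Rpl8 by 0.27 and Rpl37a by 0.24. The member that fell was Rps24, another gene mutated in human Diamond-Blackfan anaemia. It had 5.48, 5.50 and 4.50 counts per 10000 in cluster 4 of Sets 1, 2 and 3, against 7.13, 6.45 and 5.36 in cluster 2 (log2 difference -0.25, SE 0.05, limma adjusted p 0.0020). All 3′ runs of Rps24 are its own in the transcript taken, which is 1613 bases long, while the row Rps24-ps3 held 1.19 counts per 10000.

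**Figure D4:**
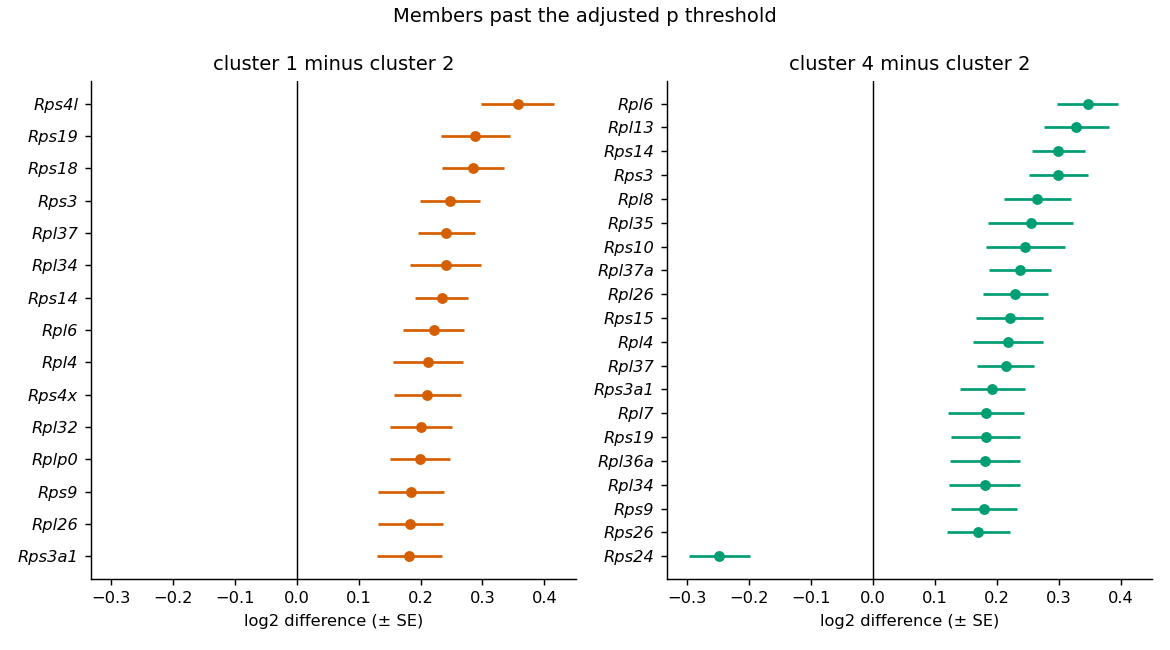
Log2 difference (± SE, limma on mean log2 of 1 plus counts per 10000, n = 3 sets) of members past an adjusted p of 0.05 in cluster 1 minus cluster 2 (left) and cluster 4 minus cluster 2 (right). Rps4l stands highest on the left at 0.36, Rpl6 on the right at 0.35, and Rps24 is the only member under 0.

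Against cluster 1, only 5 members passed in cluster 4, 2 higher and 3 lower, while 11.9% of all genes were higher and 9.49% lower. Of 1861 genes averaging at least 1 count per 10000 over both clusters, 23.3% were higher and 16.6% lower. At that level, 1 of 50 members was higher and 2 lower. Rpl13 rose to 4.57 ± 0.649 counts per 10000 in cluster 4, against 3.93 ± 0.747 in cluster 1 (SD, n = 3 sets; log2 difference 0.19, limma adjusted p 0.019). Rpl36a rose by 0.20 on the log2 scale, with no 3′ run of its own. Rps18 fell to 2.21 ± 0.158 in cluster 4, against 2.58 ± 0.034 in cluster 1 (log2 difference -0.20, limma adjusted p 0.010). Rps4l fell by 0.19 and Rps7 by 0.18. Rps4l had 0.569, 0.891 and 0.838 counts per 10000 in cluster 4 of Sets 1, 2 and 3, so its ranges overlap with those of cluster 1.

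Of the other lists, 13 of 76 mitochondrial ribosomal protein genes rose in cluster 4 relative to cluster 1 and 1 fell. Mrps18a rose by 0.37 on the log2 scale, and Mrpl16 fell by 0.77. Against cluster 2 the same list had 6 higher and 1 lower. Genes listed under elongation had 4 higher and 2 lower of 9 against cluster 2, led by Eef1g at 0.41 and Eef1e1 at -0.60. Glial markers summed to 21.1-43.1 counts per 10000 in cluster 4, above cluster 1 in every set, and their part in these differences was not tested. Without the neurons richest in glial counts 7 members rose against cluster 2 and 1 fell, and after thinning to 15000 counts 13 rose. Without Set 1, Set 2 or Set 3, the members past the threshold against cluster 2 numbered 11, 11 and 16, and against cluster 1 0, 2 and 1. Without the set as a block, no member passed in either comparison (limma), with 5 against cluster 2 and 2 against cluster 1 at an unadjusted p under 0.05.

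Cluster 3 mixed cells of very different depth and was split at the widest gap in total counts, between 18608 and 52105. The 47 high-count cells, with a median of 68061 counts, expressed neuron markers at 153-194 counts per 10000. Their members summed to 266, 215 and 198 counts per 10000 in Sets 1, 2 and 3, higher than cluster 2 in 3 of 3 sets by 19.0 ± 9.74 (SD, n = 3). Against cluster 2, 9 of 79 members rose and none fell, while 4.13% of 10518 genes were higher and 2.34% lower (limma). Of 1910 genes averaging at least 1 count per 10000 over both groups, 11.4% were higher and 5.86% lower. At that level, 9 of 50 members were higher and none lower. At an unadjusted p under 0.05, 29 were higher and none lower. The mean was higher in all 3 sets in 39 members (49.4%), against 20.2% of all genes. Rpl14 had 8.05, 9.38 and 6.77 counts per 10000 in high-count cells of Sets 1, 2 and 3, against 7.08, 7.34 and 5.31 in cluster 2 (log2 difference 0.26, SE 0.05, limma adjusted p 0.0040). Rps2, Rps15, Rps10 and Rpl35a rose by 0.21 to 0.26. High-count cells are deeper by construction. After thinning to 15000 counts the summed level was still higher in 3 of 3 sets, by 18.4 ± 4.79, while no single member passed (limma) and 13 had an unadjusted p under 0.05. Without Set 1, Set 2 or Set 3, the number was 1, 0 and 0.

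The 54 low-count cells of cluster 3 were another population, with a median of 2683.5 counts. Neuron markers summed to 44.7-96.4 counts per 10000 in them, while endothelial markers reached 9.33-33.7 and fibroblast and mural markers 27.0-53.8. In clusters 1 and 2 the same lists reached at most 1.37 and 1.41. The defining glial genes Foxd3 and Erbb3 were at 0, although glial markers summed to 15.6-88.7. Their summed member level was 539, 215 and 398 counts per 10000 in Sets 1, 2 and 3, against 236, 202 and 185 in cluster 2. Cells ranged from 57.7 to 886, so this group held both the lowest and the highest cells, and Set 2, with 31 of the 54 cells, exceeded cluster 2 by little.

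Rps14 had 34.1, 13.3 and 28.6 counts per 10000 in low-count cells of Sets 1, 2 and 3, against 9.01, 7.83 and 8.13 in cluster 2. It rose in 3 of 3 sets without overlap (log2 difference 1.20, SE 0.28, limma adjusted p 0.0063). Rps18 rose by 0.70, Rpl22 by 0.69 and Rpl8 by 0.40. Rpl38, needed in mice for translation of a subset of Hox mRNAs, had 3.79, 1.56 and 3.14 counts per 10000 in low-count cells, against 6.38, 4.27 and 4.99 in cluster 2. It fell in 3 of 3 sets (log2 difference -1.27, SE 0.14, limma adjusted p 1.53e-04). Rpl29 fell by 0.84, Rps29 by 0.77, Rpl31 by 0.74, Rpl19 by 0.47 and Rpl15 by 0.45. In that order, they were detected in only 24.1%, 9.26%, 9.26%, 11.1% and 3.70% of the low-count cells.

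In all, 5 members were higher and 20 lower in low-count cells than in cluster 2, while 6.07% of 11095 genes were higher and 45.8% lower (limma). Of 1936 genes averaging at least 1 count, scaled as above, over both groups, 11.2% were higher and 65.0% lower. At that level, 5 of 50 members were higher and 7 lower. By mean level, 25 members (31.6%) were higher in all 3 sets, against 12.7% of all genes. The mean of log2 values falls in shallow cells, and what part depth has in the split of 5 and 20 was not tested. The median over all genes was -0.12, and it was -0.04 when summed counts were scaled by median-of-ratios factors, where 18 members were higher and 5 lower. The split was 28 higher and 4 lower with voom weights, 19 and 5 with sums scaled to the total, and 1 and 42 with a pseudocount of 0.1. With cells thinned to 1500 counts 3 members were higher and none lower. Leaving out Set 1 gave 0 higher and 18 lower. The split was 20 and 14 without Set 2, and 1 and 14 without Set 3.

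Pairs of related genes were compared by their share of counts. Rpl22l1, a paralog of Rpl22, held 71.7% ± 3.77 of the pair's counts in cluster 1, 72.3% ± 2.07 in cluster 4 and 72.7% ± 3.70 in cluster 2 (SD, n = 3 sets). In low-count cells its share was 39.0%, 31.0% and 50.0% in Sets 1, 2 and 3, below every neuron value, from 16, 9 and 7 Rpl22l1 counts. Rps27l, a target of p53, held 91.2% ± 0.398 of the pair with Rps27 in cluster 1, 90.1% ± 2.49 in cluster 4 and 92.1% ± 1.72 in cluster 2, but Rps27 has no 3′ run of its own. Rpl7l1 held 13.9%, 22.8% and 21.1% of the pair with Rpl7 in cluster 1 of Sets 1, 2 and 3, against 15.8%, 25.03% and 25.5% in cluster 2. Its share was lower in cluster 1 in 3 of 3 sets, although the ranges overlap, and the difference was not tested. Rpl10l, which replaces Rpl10 in the male germ line of mice, averaged 0.0038 counts per 10000.

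Summed levels also separated the sets. Averaged over clusters 1 and 2, their summed level was 186-204 counts per 10000 over the 3 plates of Set 3, 208-227 over the 4 plates of Set 2 and 244-249 over the 4 plates of Set 1, with no overlap. Each set is 1 pool of animals, so p-values between sets measure the spread between plates only, and animals, sort and library cannot be told apart. The 3 comparisons share sets and are given side by side.

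In Set 2 relative to Set 1, 39 of 80 members fell and 3 rose (limma), while 5.17% of 10421 genes were lower and 11.9% higher. Of 1856 genes averaging at least 1 count, scaled as above, over both sets, 18.3% were lower and 12.8% higher. At that level, 21 of 51 members were lower and 3 higher. In 38 members (47.5%) every plate of Set 2 lay below every plate of Set 1, against 6.7% of all genes. In Set 3 relative to Set 1, 61 fell and none rose, also at an unadjusted p under 0.05 (limma), while 8.48% of genes were lower and 15.5% higher. Of 1876 genes at the same mean level over these sets, 22.2% were lower and 26.0% higher. At that level, 43 of 50 members were lower and none higher. In 65 members (81.2%) every plate of Set 3 lay below every plate of Set 1, against 12.2% of all genes. In Set 3 relative to Set 2, 25 fell and 9 rose, while 19.4% of genes were lower and 16.2% higher, and 28 (35%) were lower in every plate, against 18.5% of all genes. Of 1903 genes at the same mean level over these sets, 22.8% were lower and 32.4% higher. At that level, 22 of 48 members were lower and 5 higher. The members' median log2 difference was -0.21 in Set 3 relative to Set 1, against 0.01 over all genes.

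The members fell into different patterns over the sets. Rps7, which can bind Mdm2, had 0.654, 0.377, 0.680 and 0.817 counts per 10000 in the plates of Set 2 and 0.692, 0.494 and 0.757 in Set 3, against 2.48, 2.41, 2.20 and 2.18 in Set 1. Every Set 1 plate was above all others (Set 2 minus Set 1 log2 difference -1.01, SE 0.06, limma adjusted p 1.19e-10). Rps7 lies at chr12:28630854-28635953 (GRCm38, minus strand), and only 0.398% of its 3′ runs are its own. The rows that share its 3′ end summed to 1.06 in Set 2 and 0.883 in Set 3, against 0.638 in Set 1. The part of read placement in the difference of Rps7 was not tested.

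Rps26, Rplp2 and Rplp1 were instead lower in Set 3. Rps26 had 6.73, 6.86 and 6.55 counts per 10000 in the plates of Set 3, against 8.66, 9.01, 9.85 and 9.43 in Set 2 and 9.92, 10.1, 9.65 and 9.77 in Set 1. All 3 plates of Set 3 lay below the other 8 (Set 3 minus Set 1 log2 difference -0.50, SE 0.05, limma adjusted p 4.86e-08). Rplp2 averaged 3.32 ± 0.347 in Set 3, 4.86 ± 0.125 in Set 2 and 4.82 ± 0.174 in Set 1 (SD over plates). Rps20 of the small subunit had 2.28, 2.05 and 1.69 in the plates of Set 3, against 3.58, 4.14, 4.33 and 3.90 in Set 2 and 3.37, 3.17, 3.51 and 3.39 in Set 1. It was lowest in Set 3 and highest in Set 2, with no overlap between sets. Its 3′ runs are all its own in the transcript taken, which is 3706 bases long, and other ends were not looked at.

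A last pattern had Set 2 lowest. Rpl35 had 5.19, 4.00 and 5.51 counts per 10000 in the plates of Set 3, 1.88, 2.42, 2.26 and 3.13 in Set 2 and 4.46, 4.93, 4.44 and 5.34 in Set 1. Set 2 was lower without overlap (Set 3 minus Set 2 log2 difference 0.78, SE 0.12, limma adjusted p 4.16e-04). Rows that share the 3′ end of Rpl35 held 13.2 in Set 3, 9.18 in Set 2 and 9.25 in Set 1, more than Rpl35 itself. Rpl6, with 3′ runs all its own, averaged 2.45 ± 0.463 in Set 3, 1.77 ± 0.264 in Set 2 and 3.32 ± 0.166 in Set 1. Rpl3, Rpl27 and Rpl31 were also higher in Set 3 than in Set 2, by 0.18 to 0.26 on the log2 scale. With the pseudogene rows named after them added, Rpl3 kept its call at 0.28, Rpl31 was at 0.01 and Rpl27 at -0.18, and neither of these 2 passed. The members higher in Set 2 than in Set 1 were Rpl13 at 4.35 ± 0.560 against 3.26 ± 0.443, Rps20, and Rps10 at 2.36 ± 0.236 against 1.99 ± 0.127.

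**Figure D5:**
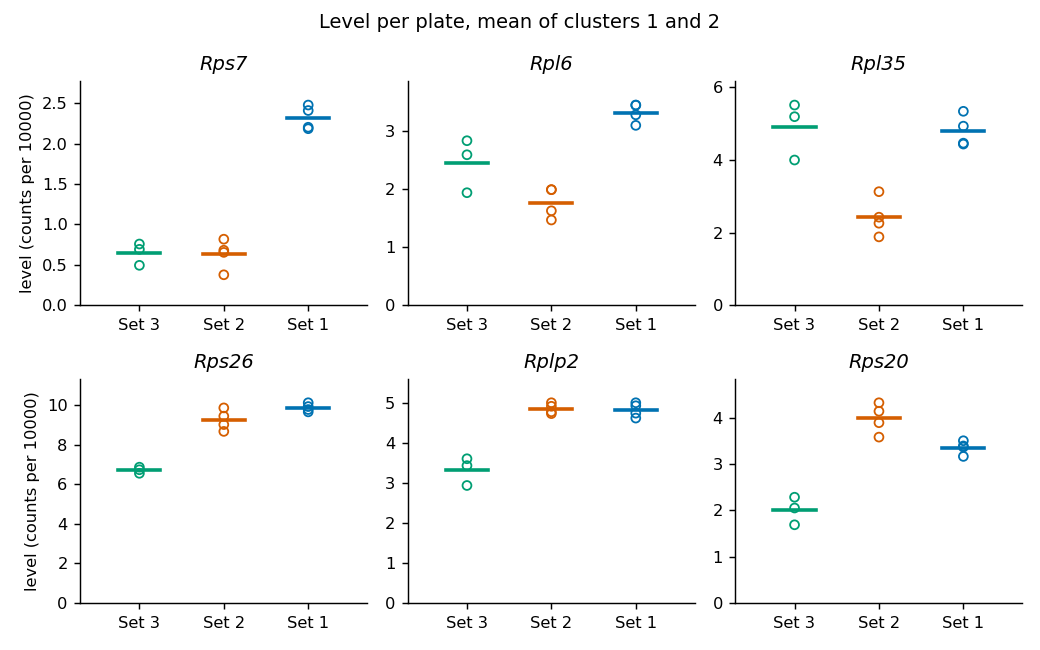
Level per plate (circles, counts per 10000, mean of clusters 1 and 2) and mean (bars) of 6 members in Set 3, Set 2 and Set 1. Rps7 is high only in Set 1, Rpl35 is low in Set 2, and Rps26, Rplp2 and Rps20 are low in Set 3.

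Pseudogene rows moved the other way in part. The 212 rows with a pseudogene suffix summed to 27.8 ± 1.96 counts per 10000 in Set 3, 34.7 ± 4.94 in Set 2 and 22.7 ± 2.20 in Set 1 (SD over plates), with every plate of Set 2 above every plate of Set 1. Members and these rows together gave 220 ± 8.22, 252 ± 12.4 and 269 ± 2.63 in Sets 3, 2 and 1. The gap between Set 2 and Set 1 was then -17.2 instead of -29.2. With each member summed with the pseudogene rows named after it, 12 members rose and 25 fell in Set 2 relative to Set 1, and 2 rose and 50 fell in Set 3 relative to Set 1. Among the 16 tested members whose 3′ runs are all their own, 3 fell and 1 rose in Set 2 relative to Set 1, and 12 fell and none rose in Set 3 relative to Set 1. Among the 46 tested members with under 50% own runs, 29 fell and 2 rose, and 35 fell and none rose. Own runs refer to the transcript taken for each gene, and other ends were not looked at. What part read placement has in these gaps was not tested.

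Calls stood among members with and without the start tract. Of 29 tested members with the tract 4 rose in cluster 1 relative to cluster 2, and of 29 without it 8 rose. In cluster 4 relative to cluster 2, 8 rose in each class, and in Set 3 relative to Set 1, 21 fell in each. In Set 3 relative to Set 2, 13 with the tract and 6 without it fell, and in Set 2 relative to Set 1, 10 and 16. These are counts only, and no test of the classes was made.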

How the data were processed

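Plate-based 3′-end libraries of single cells were measured in 3 sets of pooled ganglia. The deposited values are the natural log of 1 plus counts per 10000 in each cell, and the clusters are the authors' labels. Per the submitters' processing notes, STAR 2.5.3a, featureCounts 1.5.3, SAMtools 1.4.1 and Seurat (no version) were used with GRCm38; the handling of multiply placed reads was not stated there. Whole counts were recovered for 100% of non-zero values (tolerance 0.001). Nothing says whether counts are reads or molecules.

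For each set and cluster, log2(1 + counts per 10000) was averaged over cells and tested with limma 3.58.1 (R 4.3.3; trend, robust, two-sided), with set as a block, a filter of 0.05 counts per 10000 on the mean and Benjamini-Hochberg adjustment over all genes. This scale understates changes of low genes. Clusters 1, 2 and 4 shared a fit, and each part of cluster 3 was added in a fit of its own. Deviations of the same set correlated at 0.555 to 0.866 between clusters, so the sets pair the samples. Sets were compared over 11 plates, without a block, averaging clusters 1 and 2. Set pools of 2 mice are the replicates and plates are technical. No doublet caller was run, and all 96 well barcodes recur on more than 1 plate, as plates reuse them. Totals per plate and the 6108 to 67710 counts per cluster 1 cell bound the precision. Members, lists and tests were chosen with earlier results of these data known. Named members are up to 6 called members per direction by p, the 6 highest, and paralogs with their parents; Rpl9, Rps6, Rpl5 and others given for 3′ ends or rows were chosen after their values were seen. Tables were made with pandas 2.3.3 and numpy 2.4.6 under Python 3.11.15, ranks with scipy 1.17.1 and plots with matplotlib 3.10.9. The fits were tested on simulated data. Alternatives are given at the end. A few members are counted but not reported by name here.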

Additional observations from a re-analysis of the deposited data

Results flagged for a closer look

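Of 60 groups of 4 plates looked at for members named between sets and for the summed level, 4 had 1 plate far from the other 3, where chance gives about 1 group in 20. In Set 2, Rps10 was low in plate 5 at 2.01 counts per 10000 and Rps14 was high there at 9.18. In plate 8 of the same set, Rps16 was high at 0.338 and Rpl31 was high at 1.01. Rps27 was higher in cluster 1 than in cluster 2 in every plate of Set 2, by 0.0505 counts per 10000 on average, and lower in every plate of Set 3, by -0.0537 as cluster 1 minus cluster 2. This was found among 85 members and the difference was not tested.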

How the results depend on the processing

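Among 93 results for single members, 1154 alternative values kept the direction and the call, 257 lost the call and 7 changed sign. The sign changes were Rpl8 at -0.10 (pseudocount 0.1) and Rpl29 at 0.18 (thinned to 5000 counts) in low-count cluster 3, and, with pseudogene rows added, Rpl28 at 0.058, Rpl10a at 0.15 and Rpl10 at 0.34 in Set 2 minus Set 1, Rpl3 at 0.029 in Set 3 minus Set 1 and Rpl27 at -0.18 in Set 3 minus Set 2. The cause was not tested.

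Counts of members called by limma moved as follows. Without the set as a replicate block, cluster 1 minus cluster 2 gave 1, cluster 4 minus cluster 1 gave 0, cluster 4 minus cluster 2 gave 0, high-count cluster 3 gave 0 and low-count cluster 3 gave 15. With voom weights, cluster 1 minus cluster 2 gave 34, cluster 4 minus cluster 1 gave 3 and high-count cluster 3 gave 17. Thinning to 15000 counts gave 7, 3, 13 and 0 for the first 4 comparisons in that order, and low-count cluster 3 gave 0 at 5000 and 3 at 1500 counts. Without the filter on low levels the 5 counts were 7, 1, 10, 0 and 16. Without glia-rich neurons, cluster 1 minus cluster 2 gave 9, cluster 4 minus cluster 2 gave 8 and high-count cluster 3 gave 3. A pseudocount of 0.1 gave 15 for high-count and 43 for low-count cluster 3. Size factors gave 5 for high-count cluster 3, and scaled sums gave 2 for cluster 4 minus cluster 1. Where the count was 0, members at an unadjusted p under 0.05 numbered 2 and 5 for cluster 4 minus cluster 1 and minus cluster 2 without the block. For high-count cluster 3 they numbered 0 without the block, 13 after thinning and 23 without the filter, and for low-count cluster 3 thinned to 5000 counts 17.

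Leaving out 1 set gave 2 to 9 for cluster 1 minus cluster 2, 0 to 2 for cluster 4 minus cluster 1 (5 at an unadjusted p under 0.05 without Set 1), 11 to 16 for cluster 4 minus cluster 2, 0 to 1 for high-count (29 and 19 at an unadjusted p under 0.05 without Sets 2 and 3, where the count was 0) and 15 to 34 for low-count cluster 3. Leaving out 1 plate gave 34 to 42, 52 to 62 and 27 to 35 for Set 2 minus Set 1, Set 3 minus Set 1 and Set 3 minus Set 2. The summed level of cluster 4 minus cluster 1 was -3.75 without glia-rich neurons and -0.953 to 4.54 with 1 set left out. Set 2 minus Set 1 was -17.2 with pseudogene rows. The other summed differences kept their direction under every alternative run. The sums with pseudogene rows, scaled sums, thinning to 1500 counts and plates left out of summed levels were chosen after seeing the data. Shallow cells limit low-count cluster 3, where a cell held a median of 66 to 142 member counts by set, and 3 sets limit every cluster comparison.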
